A study of Mus musculus with 2 samples.

Results

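The signal that reelin carries through the embryonic cortex was described here by 4 genes of the 32285 in the matrices: its ligand Reln (ENSMUSG00000042453), the receptor genes Lrp8 (ENSMUSG00000028613) and Vldlr (ENSMUSG00000024924), and the adaptor gene Dab1 (ENSMUSG00000028519). They were taken from the matrices by symbol, and no threshold on a measured value entered the choice, which was made with earlier results of these data known. Their unique molecular identifiers (UMIs, each marking 1 captured mRNA molecule) were counted in Cajal-Retzius cells, progenitors, newborn and layered excitatory neurons and interneurons.

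Reelin is a large secreted glycoprotein that Cajal-Retzius cells release in the marginal zone, the outermost layer of the embryonic cortex. It binds the lipoprotein receptors ApoER2, the product of Lrp8, and VLDLR on migrating neurons, and the kinases SRC and FYN then phosphorylate DAB1 inside the cell. Mice without reelin, without DAB1, or without both receptors fail to order their cortical layers. Interneurons are a further source of reelin later in development.

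The libraries were made from dorsal telencephalon, the embryonic brain region that becomes the cerebral cortex, of mouse embryos at embryonic day 16.5 labelled wild type (WT). They belong to a series on the loss of the histone methyltransferase gene Dot1l under Emx1-Cre, a driver active in cortical excitatory lineages and their progenitors. The knockout was not analysed here, so there was 1 group of 2 libraries, WT replicate 1 and WT replicate 6, with no treatment and no genotype comparison. The labels name no strain, C57BL/6J embryos are named for cells of this age in the text that accompanies the data, and nothing says whether a library came from a single embryo.

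WT replicate 1 held 14136 cells with 74930397 UMIs and WT replicate 6 held 13046 cells with 68964234 UMIs. After the filters 7219 and 7352 cells were used, with median depths of 6453 and 6267.5 UMIs. Classes were gated cell by cell on marker genes that did not include the 4 members. The gates held 62 Cajal-Retzius cells, 686 radial glia, 800 intermediate progenitors, 1086 newborn excitatory neurons, 2104 upper-layer, 291 layer 5 and 344 layer 6 neurons. The interneuron gates held 1006 cells of the type born in the medial ganglionic eminence (MGE) and 342 of the type born in the caudal one (CGE), and 5131 cells passed no gate. The Cajal-Retzius gate asked for 4 of 8 markers, among them the transcription factor gene Trp73. Trp73 was detected in 92.5% and 100% of the gated cells and in 0.2497% and 0.2315% of the other gated neural cells. As a marker of the gate, it is no separate check of it. The libraries shared 59 barcodes, 19 of them among the cells used.

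In build GRCm38.p6, the RefSeq patch release of the mm10 assembly that the submitters' processing notes name, Reln lies on chromosome 5 at 21884454 to 22344705 on the minus strand. Lrp8 lies on chromosome 4 at 107802200 to 107876840 and Dab1 on the same chromosome at 103619500 to 104744844, both on the plus strand. Vldlr lies on chromosome 19 at 27216480 to 27254231, also on the plus strand. The spans run from 37.75 kb for Vldlr through 74.64 kb for Lrp8 and 460.3 kb for Reln to 1125 kb for Dab1, and none overlaps another protein-coding gene in RefSeq. Counts of long genes may include intronic reads, so each gene was compared only with itself.

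Reln was concentrated in Cajal-Retzius cells. It reached 8463 CPM (the gene's UMIs relative to all UMIs of the class) in WT replicate 1 and 8716 CPM in WT replicate 6. MGE-type interneurons followed with 259.1 and 215 CPM, then CGE-type interneurons with 96.56 and 136.1 CPM. These 3 classes did not overlap between libraries. Gated radial glia, intermediate progenitors and excitatory neurons were between 4.641 and 33.88 CPM. Erythroid cells, which should lack the transcript, also fell in that range with 9.109 and 16.81 CPM. Clusters, which also hold ungated cells, went higher in places. The unnamed clusters 3 and 4, with excitatory markers as their best list, had 41.02 and 68.26 CPM and 63.42 and 38.3 CPM. The intermediate progenitor cluster had 57.06 and 36.31 CPM. The other clusters of that lineage plotted below had 24.94 CPM or less. Striatal and lateral eminence neurons had 26.63 and 35.06 CPM.

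**Figure D1:**
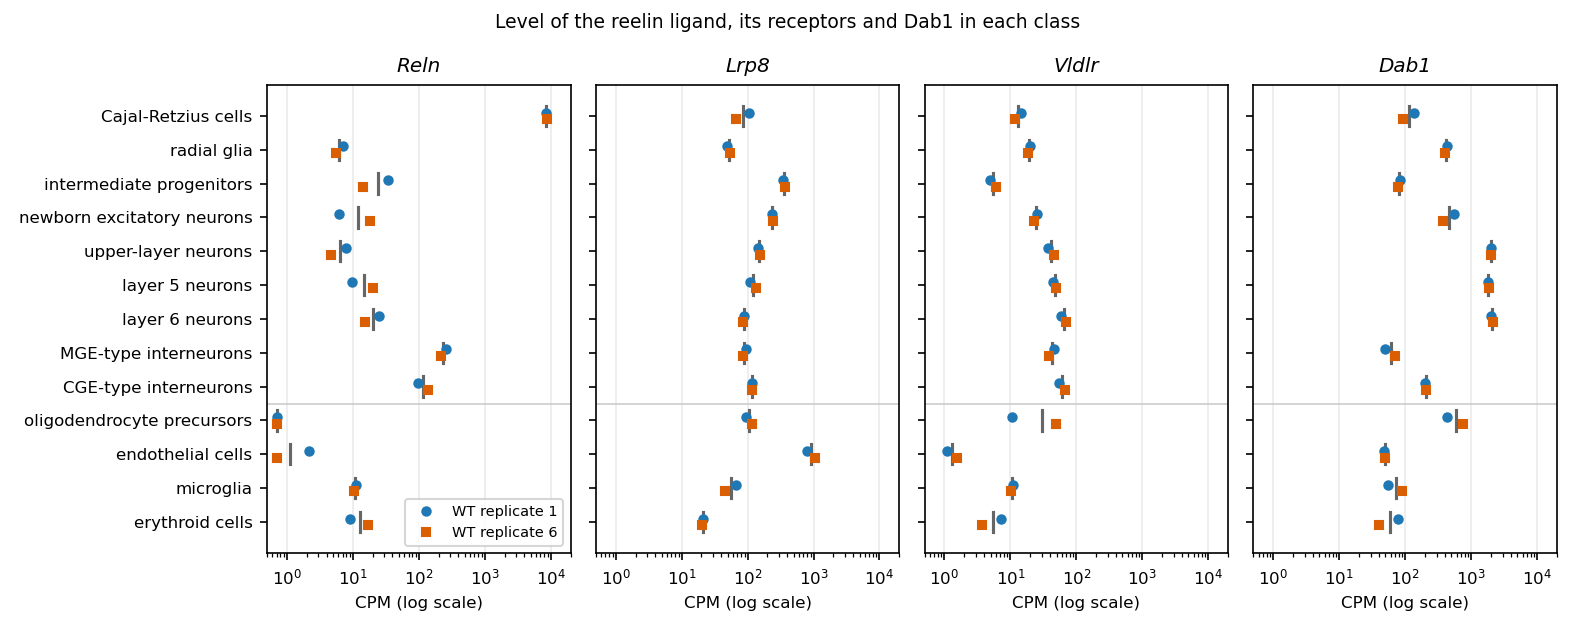
Level of each gene in CPM on a log axis, in 9 neural classes and, below the line, 4 other classes. Circles are WT replicate 1, squares WT replicate 6, bars the mean of both, and a value of 0 is drawn at 0.7. Reln stands at 8463 and 8716 CPM in Cajal-Retzius cells, Lrp8 is highest in endothelial cells and intermediate progenitors, and Dab1 is highest in the layered neurons.

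The median Cajal-Retzius cell carried 72.5 Reln transcripts in the first library and 75.5 in the second, and the richest cells 297 and 351. In WT replicate 1, 3 of the 40 gated cells had no Reln UMI, and in WT replicate 6 none of 22. The median radial glial cell, progenitor and excitatory neuron had 0.

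Cajal-Retzius cells made up 0.554% and 0.299% of the cells used but held 63.7% and 53.1% of all Reln UMIs. MGE-type interneurons held 11.1% and 10.5%, CGE-type interneurons 1.65% and 2.92%, and ungated cells 11.3% and 10.7%. The gap between the libraries lay in cells that passed more than 1 gate. With the 2 and 3 cells among them that passed the Cajal-Retzius gate added, a choice made after the values were seen, the shares were 66.3% and 65.4%. The share of Cajal-Retzius cells was lower, at 56.3% and 48.9%, when likely doublets were kept, with 6900 and 6875 Reln UMIs in all against 5519 and 4214. Cajal-Retzius cells were then 0.676% and 0.487% of cells, so the doublet filter took a larger part of this class than of all cells.

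**Figure D2:**
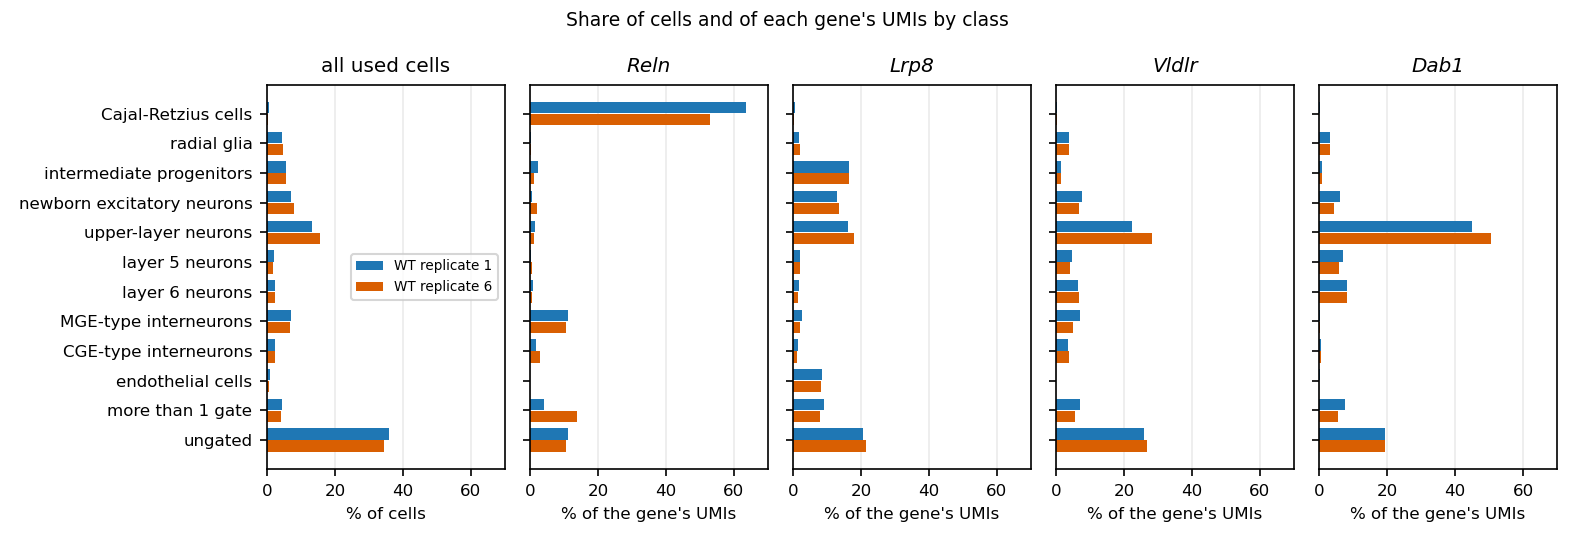
Percent of the cells used (left) and of the UMIs of each gene that fell to 9 neural classes, endothelial cells, cells in more than 1 gate and ungated cells, with 1 bar per library. Cajal-Retzius cells are 0.554% and 0.299% of cells and hold 63.7% and 53.1% of Reln UMIs, while upper-layer neurons hold 45% and 50.6% of Dab1 UMIs.

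Cells with 20 or more Reln UMIs numbered 47 in WT replicate 1 and 34 in WT replicate 6. Of these, 33 and 21 were gated as Cajal-Retzius cells, 5 and 4 as MGE-type interneurons and 5 and 3 were ungated. Single cells set part of the low values elsewhere. In WT replicate 1, 1 intermediate progenitor carried 80 of the 137 Reln UMIs of its class, which stood at 33.88 CPM with it and 14.17 CPM without it. In WT replicate 6, 1 newborn neuron carried 32 of 86, and the class stood at 17.99 CPM with it and 11.32 CPM without it.

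Against layered excitatory neurons, pooled from the upper-layer, layer 5 and layer 6 gates, Reln was 804-fold higher in Cajal-Retzius cells, a log2 difference of 9.65 ± 0.296 (SE, n = 2 libraries). The adjusted p was 1.55e-11 by edgeR's quasi-likelihood test with Benjamini-Hochberg adjustment over all genes, which was used for every comparison below. The layered neurons' 10.52 and 7.464 CPM lay within or below the erythroid values, so this fold and that of interneurons against layered neurons are read as lower bounds. All 4 members passed the threshold of 0.05 there, 1 higher and 3 lower, where 22.4% of 13526 genes passed, 10.6% higher and 11.8% lower. The scaling factors moved the median gene by -0.245 on the log2 scale. The share of calls that were higher was 47.4% with them and 66.6% without, and the direction of all 4 members was the same both ways.

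Reln was 39.2-fold higher in Cajal-Retzius cells than in interneurons, with a log2 difference of 5.29 ± 0.208 (edgeR adjusted p = 2.88e-09). Of the 4 members 2 passed in that comparison, 1 in each direction, where 29.6% of 11282 genes passed, 14.7% higher and 14.8% lower. Interneurons in turn exceeded layered neurons 20.9-fold, at a log2 difference of 4.39 ± 0.149 (edgeR adjusted p = 5.34e-08). There 3 members passed, 1 higher and 2 lower, beside 44.8% of 14234 genes, 22.3% higher and 22.5% lower, and the higher share of calls was 49.8% with scaling factors and 60.2% without. The factors moved the median gene by -0.116 and -0.102 in these comparisons, and interneurons were shallower, with medians of 3928 and 3859.5 UMIs against 9380 and 8412 in layered neurons.

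**Figure D3:**
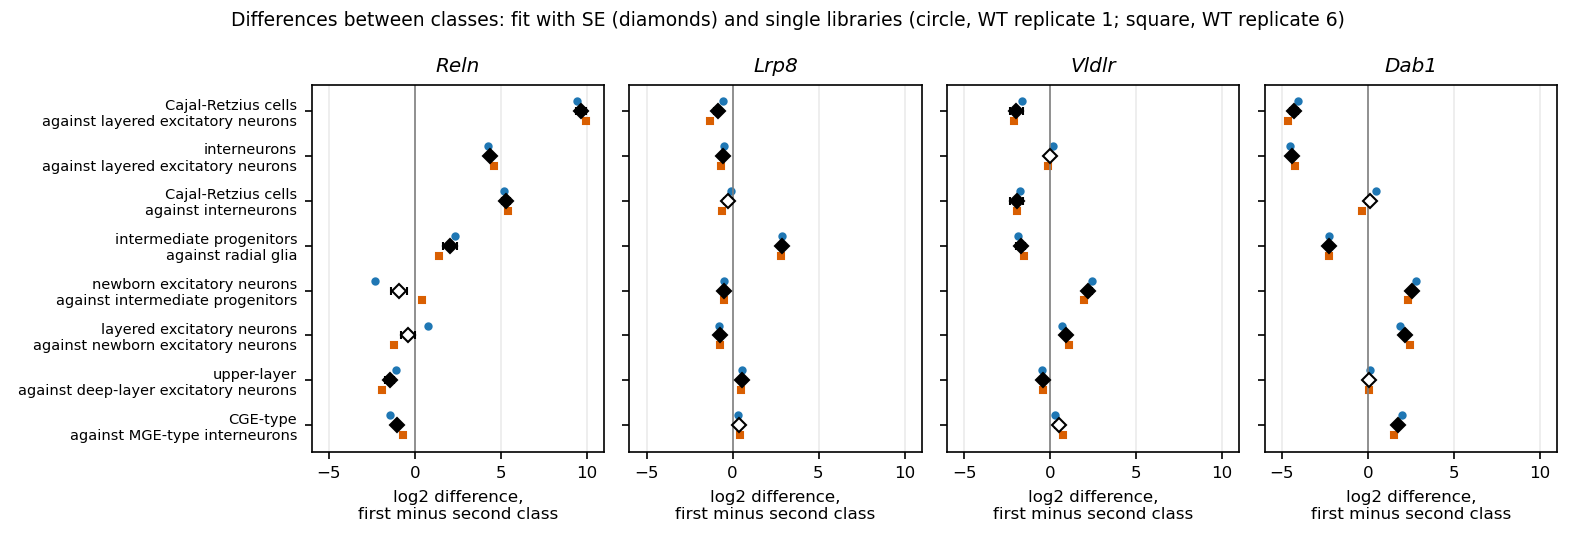
Log2 difference of each gene in the 8 comparisons, first-named minus second-named class. Diamonds are the edgeR estimate with its SE, filled where the adjusted p was under 0.05. Circles and squares are the single libraries. Reln in newborn neurons against intermediate progenitors lies at -2.34 in WT replicate 1 and at 0.40 in WT replicate 6.

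Within interneurons Reln was lower in the CGE type than in the MGE type by a log2 difference of -1.06 ± 0.165 (edgeR adjusted p = 0.00143), with -1.43 in WT replicate 1 and -0.69 in WT replicate 6. Of the members 2 passed here, 1 in each direction, beside 14.1% of 10623 genes, 7.3% higher and 6.83% lower. The call was lost when classes were taken from clusters (-0.56, adjusted p = 0.166).

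MGE-type interneurons were not uniform. Most gated cells fell in 2 clusters, both led by Nxph1, a gene of cortical interneurons. In the cluster that was also led by Dlgap2, Dpp10 and Nxph2, gated cells had 532.5 and 365 CPM of Reln, and in the one led by Cntnap5c, Erbb4 and Maf they had 23.78 and 42.52 CPM. The members were kept out of the genes used for clustering.

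Splits by single transcripts gave descriptions of the same kind, with depth not held equal between the sides. MGE-type cells with a UMI of Sst, the somatostatin gene, had 464 and 378 CPM of Reln, and those without had 189.9 and 170.9 CPM. A cluster that was left unnamed and was led by Sst and Snhg11 stood at 309.6 and 321.7 CPM. Among CGE-type cells, those with a UMI of Npas1 had 199.5 and 317.1 CPM and those without 55.07 and 85.12 CPM. The split by Nr2f2 had the same order (107.8 and 156.6 CPM with, 57.19 and 75.03 without). For Sp8 the order was the other way, with 51.63 and 69.97 CPM with a UMI and 136.8 and 203.9 CPM without. So it was for Prox1, a further marker of the CGE gate (81.51 and 99.28 CPM with, 179.3 and 297.1 without). Splits by Npy in the MGE type (251.8 and 246.7 CPM with, 262.8 and 200.8 without) and by Htr3a in the CGE type (94.16 and 144 with, 97.39 and 133.2 without) overlapped.

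After thinning every cell to 2000 UMIs, at least 1 Reln UMI was left in 92.3% (95% exact binomial interval 79.1 to 98.4) and 100% (84.6 to 100) of Cajal-Retzius cells, against 92.5% and 100% before thinning. These intervals cover counting error only, and cells under that depth were left out, 61 and 56 of the MGE type, 11 and 8 of the CGE type, 53 and 41 erythroid cells and at most 8 per library in each other neural class plotted. The means were 20.2% in MGE-type and 15.2% in CGE-type interneurons. Radial glia, intermediate progenitors, newborn neurons and upper-layer neurons had means of 1.63%, 1.88%, 1.81% and 1.02%, beside 2.52% ± 1.99 (SD, n = 2) in erythroid cells. The libraries differed. In WT replicate 1 these classes had 1.85%, 2.28%, 1.39% and 1.25%, above the erythroid 1.12% but within its interval of 0.136 to 3.98. In WT replicate 6 they had 1.41%, 1.49%, 2.23% and 0.794%, below the erythroid 3.93%. They were read as background. Layer 5 and layer 6 neurons had means of 4.24% and 3.51%, within 1 SD of the erythroid mean. In WT replicate 1 they had 3.23% and 4.07%, and in WT replicate 6 5.26% and 2.94%.

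**Figure D4:**
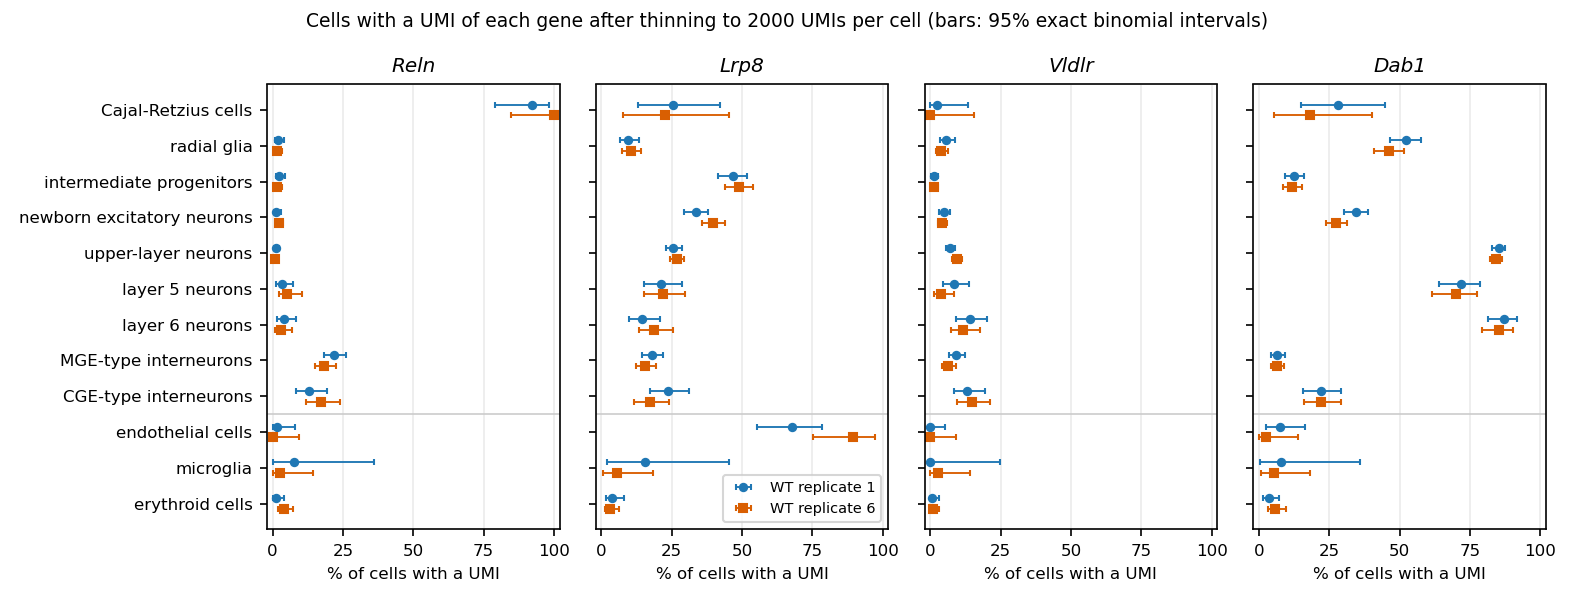
Percent of cells with at least 1 UMI of each gene after every cell was thinned to 2000 UMIs, by library, with 95% exact binomial intervals. Cells shallower than that are left out, and the classes below the line are other cell types. Reln is found in 92.3% and 100% of Cajal-Retzius cells, and Dab1 in 84.3% to 87.2% of upper-layer and layer 6 neurons.

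Some differences passed the test inside that low range. Intermediate progenitors exceeded radial glia by 2.03 ± 0.411 on the log2 scale (edgeR adjusted p = 0.00233), with 2.32 in WT replicate 1, where the cell with 80 UMIs lay, and 1.43 in WT replicate 6. After thinning, Reln missed the count filter in this comparison and was not tested. All 4 members passed there, 2 in each direction, beside 43.7% of 12648 genes, 20.5% higher and 23.2% lower. Upper-layer neurons were below deep-layer neurons, pooled from layers 5 and 6, by -1.47 ± 0.276 (edgeR adjusted p = 0.00845), at 7.992 and 4.641 against 17.62 and 17.44 CPM. That call was lost after thinning the cells (-1.53, adjusted p = 0.0704).

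Newborn neurons and intermediate progenitors were not separated in Reln (log2 difference -0.92 ± 0.457, edgeR adjusted p = 0.142), and the libraries went in opposite directions. With the library as a replicate block the value was -0.90 with an adjusted p of 8.61e-06 in a fit whose median degrees of freedom per gene were 12500, against 9.45 without the block, and with classes from clusters it was -2.45. Layered against newborn neurons gave -0.40 ± 0.387 (edgeR adjusted p = 0.494), again with opposite signs, 0.77 in WT replicate 1 and -1.25 in WT replicate 6.

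Lrp8, the ApoER2 gene, peaked in intermediate progenitors among the neural classes, at 342 and 369.2 CPM. Newborn excitatory neurons had 231.1 and 244.1 CPM, upper-layer neurons 143.7 and 152.8, layer 5 neurons 108.6 and 134.6, and layer 6 neurons 88.52 and 85.49. Radial glia were the lowest of the 9 neural classes plotted with 49.17 and 54.61 CPM. The order from intermediate progenitors through newborn to upper-layer neurons did not overlap between libraries, while layer 5 neurons overlapped CGE-type interneurons, and layer 6 neurons overlapped MGE-type interneurons and Cajal-Retzius cells.

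Lrp8 rose 7.21-fold from radial glia to intermediate progenitors, a log2 difference of 2.85 ± 0.112 (edgeR adjusted p = 2.11e-08). WT replicate 1 gave 2.87 and WT replicate 6 gave 2.83. It was then lower in newborn neurons than in intermediate progenitors by -0.50 ± 0.0817 (edgeR adjusted p = 0.000929). Layered neurons were lower than newborn neurons by a further -0.76 ± 0.0708 (edgeR adjusted p = 0.000133). Of the members 3 passed at each of these later steps, 2 higher and 1 lower. The background was 39.5% of 12515 genes at the first, 19.2% higher and 20.3% lower, and 24.6% of 13712 genes at the second, 13.4% higher and 11.2% lower.

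Cycling intermediate progenitors did not have the higher Lrp8 level. Intermediate progenitors without a UMI of the proliferation genes Mki67 or Top2a had 363.8 and 397.6 CPM, and those with one had 302.4 and 302.9. In radial glia the values were 47.88 and 57.81 CPM without and 50.15 and 52.32 with. The gated intermediate progenitors in the cluster led by the cell-cycle genes Cenpf and Cks2 had 298.9 and 272.7 CPM, while the gated radial glia in that cluster had 50.27 and 48.56.

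Upper-layer neurons exceeded deep-layer neurons in Lrp8 by 0.54 ± 0.0843 on the log2 scale (edgeR adjusted p = 0.00327). Of the members 3 passed in this comparison, 1 higher and 2 lower, beside 15.6% of 13215 genes, 5.77% higher and 9.87% lower. The Lrp8 call was lost with classes from clusters (0.18, adjusted p = 0.129) and after thinning (0.46, adjusted p = 0.0744).

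Interneurons were lower than layered neurons in Lrp8 by -0.58 ± 0.0814 (edgeR adjusted p = 0.000474), and Cajal-Retzius cells by -0.88 ± 0.198 (edgeR adjusted p = 0.00505). After thinning, the adjusted p of the latter was 0.0502. Cajal-Retzius cells, at 103.4 and 66.24 CPM from 43 and 17 UMIs, were not separated from interneurons (-0.27, 95% interval -0.735 to 0.204, edgeR adjusted p = 0.391). Nor were CGE-type from MGE-type interneurons (0.37, interval 0.0676 to 0.667, edgeR adjusted p = 0.11).

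Vldlr, the gene of the other receptor, had the reverse course. Layer 6 neurons had 59.02 and 69.54 CPM, CGE-type interneurons 55.17 and 66.4, layer 5 neurons 44.42 and 49.23, MGE-type interneurons 45.92 and 38.51 and upper-layer neurons 36.76 and 45.12. Neighbours in this order overlapped, apart from CGE-type interneurons and layer 5 neurons. Newborn neurons had 25.48 and 23.01 CPM and radial glia 19.73 and 18.51. Cajal-Retzius cells had 14.43 and 11.69 CPM, which rested on 6 and 3 UMIs.

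Intermediate progenitors were the lowest neural class for Vldlr with 4.946 and 6.039 CPM, beside 7.084 and 3.655 in erythroid cells, a level read as background, so that differences from them are lower bounds in size. They were below radial glia by -1.72 ± 0.247 on the log2 scale (edgeR adjusted p = 0.000238), a difference not tested after thinning, where Vldlr missed the count filter. Newborn neurons exceeded them by 2.22 ± 0.215 (edgeR adjusted p = 3.23e-05), and layered neurons exceeded newborn neurons by 0.91 ± 0.119 (edgeR adjusted p = 0.000848). Lrp8 and Vldlr thus differed in sign at each of these 3 steps, a difference between genes that was not tested.

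Upper-layer neurons were below deep-layer neurons in Vldlr by -0.44 ± 0.122 (edgeR adjusted p = 0.046), a call that was lost with DESeq2 (-0.42, adjusted p = 0.334) and with classes from clusters (-0.19, adjusted p = 0.303). Interneurons and layered neurons did not differ detectably, with an interval of -0.247 to 0.248 around the log2 difference (edgeR adjusted p = 0.999). Cajal-Retzius cells were lower than layered neurons by -1.98 ± 0.37 (edgeR adjusted p = 0.00122) and lower than interneurons by -1.95 ± 0.375 (edgeR adjusted p = 0.00173). After thinning, these calls had adjusted p values of 0.224 and 0.166. CGE-type against MGE-type interneurons gave 0.49 ± 0.191 (edgeR adjusted p = 0.131).

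**Figure D5:**
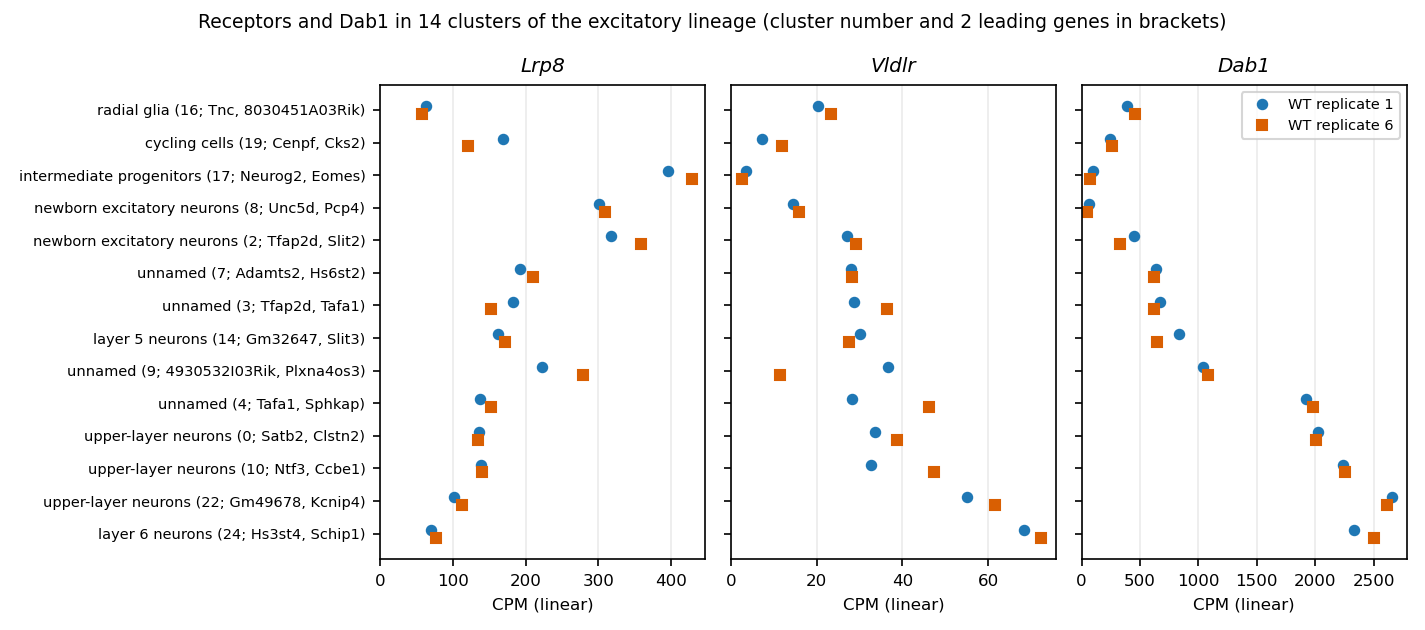
Level of Lrp8, Vldlr and Dab1 in CPM on linear axes in 14 clusters of radial glia, progenitors and excitatory neurons, by library. The clusters and their order from progenitors to layered neurons were chosen with the values in view, and each label gives the cluster number and 2 leading genes. Dab1 lies at 831.9 CPM or less in the first 8 clusters, at 1039 and 1084 CPM in the unnamed cluster 9, at 1921 and 1983 CPM in the unnamed cluster 4 and at 2004 CPM or more in the last 4.

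Dab1, which passes the reelin signal on inside the cell, was highest in the layered neurons. Layer 6 neurons had 1964 and 2112 CPM, upper-layer neurons 1989 and 2030, and layer 5 neurons 1779 and 1836, slightly below the other layers in both libraries. The layer 5 gate was mixed. Its 47 and 42 cells in the layer 6 cluster, led by Hs3st4, had 2395 and 2476 CPM. Its 35 and 34 cells in the layer 5 cluster, led by Gm32647, had 1300 and 1269 CPM. These parts also differed in Lrp8 (64.58 and 80.48 against 111.7 and 128.9 CPM) and Vldlr (70.63 and 59.18 against 30.9 and 44.82 CPM). Newborn neurons had 544.5 and 377.4 CPM and radial glia 428.5 and 399.5, which overlapped. CGE-type interneurons had 199.5 and 208.1, Cajal-Retzius cells 137.1 and 93.51, intermediate progenitors 83.35 and 77.98, and MGE-type interneurons 49.71 and 70.19 CPM. The last class was in the range of erythroid cells, at 77.93 and 40.21 CPM.

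Dab1 fell by 2.28 on the log2 scale from radial glia to intermediate progenitors (SE 0.111, edgeR adjusted p = 7.21e-08), a 4.87-fold difference. It was 6.05-fold higher in newborn neurons than in intermediate progenitors (2.60 ± 0.166, edgeR adjusted p = 2.14e-06) and 4.41-fold higher in layered than in newborn neurons (2.14 ± 0.156, edgeR adjusted p = 3.86e-05). The sizes depended on where newborn neurons were delimited. With classes from clusters the step into newborn neurons was 0.75 (adjusted p = 0.0104) and the step into layered neurons 4.03 (adjusted p = 2.63e-07). With doublets kept the fall from radial glia was -1.31 and the step into newborn neurons 1.44.

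The newborn gate itself held a range of Dab1 levels. Gated cells in the cluster led by Unc5d, Pcp4 and Nrn1 had 64.63 and 32.77 CPM, those in the cluster led by Tfap2d and Slit2 had 230 and 276.9 CPM, and those in the cluster led by Adamts2, Hs6st2 and Nrp1 had 579.9 and 497.4 CPM. In the same 3 clusters Lrp8 stood at 268.5 and 288, at 280.2 and 335.5 and at 195 and 221.6 CPM. Upper-layer cells in the cluster led by Kcnip4 and Inhba had the highest Dab1 among gated upper-layer cells, 2630 and 2682 CPM, with Lrp8 at 105.2 and 115.8 and Vldlr at 50.85 and 60.59 CPM.

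Upper-layer and deep-layer neurons did not differ detectably in Dab1 (0.07, 95% interval -0.0927 to 0.232, edgeR adjusted p = 0.585), although with classes from clusters the upper-layer neurons were higher (0.50, adjusted p = 0.000194). Interneurons were 20.9-fold below layered neurons (-4.38 ± 0.106, edgeR adjusted p = 7.67e-09) and Cajal-Retzius cells 19.9-fold below (-4.32 ± 0.237, edgeR adjusted p = 7.14e-09). Cajal-Retzius cells and interneurons were not separated (0.11, interval -0.354 to 0.573, edgeR adjusted p = 0.74), but were with classes from clusters (0.64, adjusted p = 0.0106). Among interneurons the CGE type exceeded the MGE type 3.36-fold (1.75 ± 0.164, edgeR adjusted p = 4.33e-05).

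Reception of the signal requires a receptor and DAB1 in the same cell. At 2000 UMIs per cell, a UMI of either receptor gene together with 1 of Dab1 was found in 25.9% and 28.2% of upper-layer neurons, 22.1% and 25.9% of layer 6 neurons and 18.7% and 15.8% of layer 5 neurons. The shares were 11% and 9.78% in newborn neurons, 8.33% and 6.2% in radial glia and 6.33% and 4.7% in intermediate progenitors. MGE-type interneurons were lowest of the classes with more than 100 cells, at 1.32% and 0.92%. Whether these shares differ from what separate detection of the genes would give was not tested.

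Receptor detection alone followed another order, set by Lrp8. At least 1 receptor UMI was found in 47.3% and 49.8% of intermediate progenitors, 37.1% and 42.2% of newborn neurons and 31.1% and 33.9% of upper-layer neurons. Dab1 was detected in 85.1% and 84.3% of upper-layer neurons but in 12.4% and 11.6% of intermediate progenitors, beside a mean of 4.51% in erythroid cells. Both receptor genes in 1 cell were found in at most 3.07% of cells of any neural class, a share that depth limits.

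The rest of the pathway was read from a list of 47 genes grouped by role. Among genes of ligand processing, alternative ligands and chaperones, Adamts3, the main protease that inactivates reelin, passed the test in all 8 comparisons. It stood at 121 CPM in layered neurons and 126 CPM in radial glia, and at 12.1 CPM in intermediate progenitors and 8.25 CPM in Cajal-Retzius cells. Intermediate progenitors were below radial glia by -3.30 ± 0.169, newborn neurons above intermediate progenitors by 2.01 ± 0.147 and layered above newborn neurons by 1.43 ± 0.0752 on the log2 scale, all past the threshold by edgeR. The signs of these differences were those of Vldlr and Dab1 at the same steps. Upper-layer neurons were below deep-layer neurons by -0.93 ± 0.0803, and CGE-type above MGE-type interneurons by 3.21 ± 0.372.

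Adamts2, a related protease, was higher in upper-layer than in deep-layer neurons (2.06 ± 0.214, edgeR adjusted p = 0.000373) and in newborn neurons than in intermediate progenitors (3.51 ± 0.155, edgeR adjusted p = 2.85e-07). Cajal-Retzius cells held 2 UMIs of it, and layered neurons were 19.7-fold higher by counts (interval 5.43 to 163). Thbs1, whose product thrombospondin is a further ligand of the reelin receptors, was found among interneurons almost only in the MGE type. MGE-type interneurons had 56.2 CPM, CGE-type interneurons 1 UMI in all and Cajal-Retzius cells 2 UMIs in all. Adamts5 had no UMI in Cajal-Retzius cells, and interneurons with 17.4 CPM were at least 3.9-fold higher than the floor of 3 UMIs over both libraries.

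Apoe, a lipoprotein ligand of both receptors, fell from 819 CPM in radial glia to 49.7 in intermediate progenitors (-3.97 ± 0.12, edgeR adjusted p = 6.87e-09), and Clu from 112 to 5.86 CPM (-4.18 ± 0.202). Adamts4 rose at that step from 2 UMIs in radial glia, by counts 9.92-fold (interval 2.47 to 86.4). Lrpap1, a chaperone of this receptor family, was higher in Cajal-Retzius cells than in interneurons (1.41 ± 0.21, edgeR adjusted p = 0.000246) and than in layered neurons (0.54 ± 0.174, edgeR adjusted p = 0.0374). The call against layered neurons was lost without the count filter, with doublets kept, with 3000 to 30000 UMIs and after thinning.

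Among co-receptors, Nrp1, which joins VLDLR in a receptor complex, stood at 899 CPM in newborn neurons. It was higher there than in intermediate progenitors (3.35 ± 0.103, edgeR adjusted p = 4.34e-08) and higher than in layered neurons, which differed from newborn neurons by -0.82 ± 0.0801 (edgeR adjusted p = 0.000177). That last sign was reversed with classes from clusters. Nrp1 was below layered neurons in interneurons (-3.37 ± 0.127) and in Cajal-Retzius cells (-4.20 ± 0.307). Mylip, whose product degrades lipoprotein receptors, was higher in layered than in newborn neurons (1.04 ± 0.296, edgeR adjusted p = 0.0355) and lower in interneurons than in layered neurons (-1.18 ± 0.309, edgeR adjusted p = 0.0137). Itga3, an integrin gene, was at 4.9 CPM or less in the classes compared and passed in none of the 5 comparisons that tested it.

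Of the intracellular genes, Fyn passed in 5 of 8 comparisons with differences of at most 0.716 in size, Src in 1, and the adaptor genes Crk and Crkl in none of 8. Pik3r1, a subunit of the PI3 kinase, was lower in upper-layer than in deep-layer neurons (-1.41 ± 0.123) and higher in CGE-type than in MGE-type interneurons (1.69 ± 0.151). Dcx, a microtubule gene of migrating neurons, was higher in intermediate progenitors than in radial glia (3.61 ± 0.119), and Nde1 lower in newborn neurons than in intermediate progenitors (-3.02 ± 0.233). Mapt, the tau gene, was higher in layered than in newborn neurons (1.36 ± 0.104). Pafah1b1 passed in 1 comparison and Cdk5 in 2.

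Of the genes that degrade phosphorylated DAB1, Socs7 was higher in newborn neurons than in intermediate progenitors (0.78 ± 0.145, edgeR adjusted p = 0.00203), and Rnf7 was lower (-0.61 ± 0.107, edgeR adjusted p = 0.00142). Rnf7 was also higher in Cajal-Retzius than in layered neurons (0.71 ± 0.23, edgeR adjusted p = 0.0401). That Rnf7 call was lost without the count filter, with doublets kept, with 3000 to 30000 UMIs and after thinning. Cul5 passed only between Cajal-Retzius cells and interneurons (-0.62 ± 0.202, edgeR adjusted p = 0.0338).

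Counted over the list, 2 genes were higher and 12 lower of 44 tested in Cajal-Retzius cells against layered neurons (31.8% beside 22.4% of all genes tested, median log2 difference -0.319 beside -0.105 over all genes). In Cajal-Retzius cells against interneurons 3 were higher and 13 lower of 41 (39% beside 29.6%, medians -0.466 and -0.0578), and in interneurons against layered neurons 11 and 15 of 46 (56.5% beside 44.8%, medians -0.0132 and -0.0203). Intermediate progenitors against radial glia gave 15 and 10 of 42 (59.5% beside 43.7%, medians 0.117 and 0.00512), newborn neurons against intermediate progenitors 19 and 5 of 43 (55.8% beside 39.5%, medians 0.209 and -0.00032), and layered against newborn neurons 6 and 10 of 45 (35.6% beside 24.6%, medians -0.025 and 0.00746). Upper-layer against deep-layer neurons gave 4 and 3 of 44 (15.9% beside 15.6%, medians 0.0498 and 0.00852), and CGE-type against MGE-type interneurons 3 and 4 of 40 (17.5% beside 14.1%, medians -0.0889 and -0.0093). After thinning, the genes of the list that passed fell to 7 in the first of these comparisons and to 3 in the second.

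Over 17 class means of log2(CPM + 10), among 7562 genes that reached 50 CPM in a class and were no gate marker, the genes with the profile most like Reln were Car10 (r = 0.972), Snhg11 (0.97) and Pnoc (0.968), all highest in Cajal-Retzius cells. For Lrp8 they were Arhgef2 (0.846), Slc6a6 (0.833) and Sema7a (0.786), highest in endothelial cells. For Vldlr they were Grin2b (0.942), Dclk1 (0.94) and Tmeff2 (0.934), and for Dab1 they were Adamts3 (0.926), Dok6 (0.887) and Nlgn1 (0.875). Between members the largest was 0.7, for Vldlr and Dab1. The class means share their 2 libraries and differ in depth.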

How the data were processed

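Single-cell 3' v3.1 libraries (10x Genomics) of 2 WT samples were analysed. The authors made the deposited count matrices with Cell Ranger 7.0.0 (mm10 per the submitters' processing notes), which hold unnormalized UMIs for each gene in each cell. Whether intronic reads were counted is not given in the sources used here.

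Cells outside 1500 to 60000 UMIs or with 10% or more from mitochondrial genes were dropped, as were 920 and 857 likely doublets, scored by their nearness to simulated ones. Per-cell marker gates set the classes, and cells in more than 1 gate were left out. The alternative classes came from Leiden clusters (scanpy 1.11.5, resolution 1, 2000 variable genes without the members). Counts were summed per library and class and tested with edgeR 4.0.16 (quasi-likelihood, TMM, filterByExpr, 2 classes per fit, two-sided, threshold 0.05). CPM are from unscaled sums. On simulated data 60% to 88% of 2-fold and 95% to 99% of 4-fold changes were recovered, with 2 to 11 false calls per comparison. Only genes above a least expected count were changed there, and all genes had the same dispersion. The recovery therefore does not cover low-count results.

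Each library gave both of the sums compared. Deviations of same-library sums from their class means correlated at r = 0.11 to 0.32 over genes, so the library also served as a block. DESeq2 1.42.0 was an alternative. Nothing says how the libraries relate to embryos, so p-values measure the spread between these samples.

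The members, the 47-gene list and the marker lists were chosen with earlier results of these data known. Named genes of the list were the called genes with the 2 largest differences in each direction per comparison, and 14 genes named always. The like profiles were the 3 highest correlations per member. RefSeq (GRCm38.p6) gave the positions.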

Additional observations from a re-analysis of the deposited data

How the results depend on the processing

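Of 32 log2 differences of the members, 24 passed the threshold. Under the alternatives 277 values kept sign and side of it, 10 changed sign, 6 gained a call and 9 lost one. Reln and Vldlr in intermediate progenitors against radial glia missed the count filter after thinning, so that setting gave no value for them. With cells thinned to 1500 UMIs, Lrp8 (-1.31) and Vldlr (-2.33) in Cajal-Retzius against layered neurons, Vldlr in Cajal-Retzius cells against interneurons (-2.50), and Reln (-1.53) and Lrp8 (0.457) in upper against deep layers lost their calls, and Vldlr gained one in CGE-type against MGE-type interneurons (1.07). With classes from clusters, Lrp8 (0.181) and Vldlr (-0.188) in upper against deep layers and Reln in CGE-type against MGE-type (-0.558) lost theirs. Gained there were Dab1 in Cajal-Retzius cells against interneurons (0.64) and upper against deep layers (0.50), and Reln in newborn neurons against intermediate progenitors (-2.45, and -0.901 with the library as a replicate block). DESeq2 lost Vldlr in upper against deep layers (-0.416), and 3000 to 30000 UMIs gave Lrp8 in CGE-type against MGE-type (0.564). The block changed no other member call.

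Signs turned only where the main test made no call. Vldlr in interneurons against layered neurons was -0.0361 with DESeq2, -0.0895 without the count filter, -0.0247 with all classes in 1 fit, -0.0419 with doublets kept and -0.0201 from clusters. Dab1 in Cajal-Retzius cells against interneurons was -0.0336 without the filter, -0.0774 with all classes, -0.297 with doublets kept and -0.23 with 3000 to 30000 UMIs. Reln in layered against newborn neurons was 0.0121 from clusters. The causes were not tested.

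The single libraries gave -2.08 and -1.62 for Vldlr in Cajal-Retzius against layered neurons, -1.91 and -1.75 against interneurons, and -2.28 and -2.28 for Dab1 in intermediate progenitors against radial glia. The Reln share of Cajal-Retzius cells was 63.7% and 53.1% in the single libraries. It was 56.3% and 48.9% with doublets kept. With the Cajal-Retzius cells that also passed another gate added, it was 66.3% and 65.4%.

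Genes called changed by over 1.5 times after thinning (1009, 3439, 822, 2385, 2029, 1454, 947 and 602 in the order of the plot of differences, from 3033, 6377, 3336, 5533, 4939, 3374, 2066 and 1502), with DESeq2 in the last 6 (1800, 3192, 2821, 1949, 1260 and 719), from clusters in layered against newborn neurons (6227) and CGE-type against MGE-type (947), and with the block in upper against deep layers (3168). Vldlr in Cajal-Retzius cells rests on 6 and 3 UMIs. The classes from clusters count a cycling cluster that also holds intermediate progenitors as radial glia.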

Other observations

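Outside the neural classes, Lrp8 was highest in endothelial cells, the lining of blood vessels, at 789.8 and 1064 CPM. These 106 cells were 0.942% and 0.517% of the cells used and held 8.64% and 8.14% of all Lrp8 UMIs. At 2000 UMIs per cell Lrp8 was detected in 67.6% and 89.5% of them, and Vldlr in none, which had 1.099 and 1.522 CPM. Dab1 was at 48.34 and 48.69 CPM there, in the range of erythroid cells. Mural cells, the contractile cells around the vessels, had 12.5 and 5.97 CPM of Lrp8.

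The 24 oligodendrocyte precursors, 19 and 5 per library, had no Reln UMI and 436.8 and 744.7 CPM of Dab1, beside 428.5 and 399.5 CPM in radial glia.

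The cluster led by the cell-cycle genes Cenpf and Cks2 held 83 and 103 gated radial glia and 68 and 51 gated intermediate progenitors per library. Its gated radial glia had 456.5 and 359.5 CPM of Dab1 and 50.27 and 48.56 CPM of Lrp8. Both overlapped the gated cells of the other radial glia cluster, at 406 and 461.8 CPM of Dab1 and 43.12 and 57.11 CPM of Lrp8. Its gated intermediate progenitors had 40.15 and 62.43 CPM of Dab1 and 298.9 and 272.7 CPM of Lrp8.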
